A study of Mus musculus with 39 samples.

Results

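The 10 genes described here, mt-Co1, mt-Co2, mt-Co3, mt-Cytb, mt-Atp6, mt-Nd1, mt-Nd2, mt-Nd4, mt-Nd5 and mt-Nd6, are encoded by mouse mitochondrial DNA and code for subunits of the respiratory chain and of ATP synthase. They were picked by symbol, and all 10 were found among the 28023 gene entries of both expression tables. The tables also held mt-Nd3, mt-Nd4l and mt-Atp8, which brings the mitochondrially encoded protein genes to 13. The ribosomal RNA genes mt-Rnr1 and mt-Rnr2 had no entry under these symbols. Levels are in TPM, a transcript share in which each gene's signal is divided by its length and every library is scaled to the same sum. The entries listed here fell somewhat short of that sum, at 956720 to 989078 TPM in sorted CD8+ T cells and 970406 to 991092 in tumour libraries. Percentages of TPM below are of the full scale, not of these sums.

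The libraries came from wild-type C57BL/6 mice bearing MCA-205, a fibrosarcoma line syngeneic to the strain, in a study asking whether the colon-acting adsorbent DAV132 limits the harm that an antibiotic does to the response to anti-PD-1. All mice first received a faecal microbiota transplant (FMT) of volunteers' stool that had been exposed for 6 days to CZA, an agent the labels name only by this abbreviation, or to CZA+DAV132; no group without CZA was among these libraries. After 2 weeks, tumour cells were implanted under the skin, and once tumours measured 25 to 35 mm2 the mice received 4 intraperitoneal injections, 3 days apart, of 250 µg anti-PD-1 (clone RMP1-14) or its isotype control (clone 2A3); they were killed 2 days after the last. Age and sex are not given in the labels. One set holds 20 libraries of tumour-infiltrating CD8+ T cells, sorted in a repeat of the experiment with the same FMT material, with 5 in each of the groups CZA with isotype (libraries 1 to 5), CZA with anti-PD-1 (6 to 10), CZA+DAV132 with isotype (11 to 15) and CZA+DAV132 with anti-PD-1 (16 to 20). The other holds 19 libraries labelled bulk tumour, with 5, 5, 4 and 5 in the same order; there the numbers run from T982 to T991 in the CZA arm and from T021 to T030 in the other, so that arm and number series cannot be told apart. The stool given was not replicated within an arm, so DAV132 and the stool cannot be told apart either. The labels tie no library to a mouse, and p-values measure the spread between libraries, which may be technical. The read depth is unknown, because TPM keeps none.

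Mitochondrial DNA is a small circular genome that is transcribed along its whole length on both strands, and the long transcripts are then cut apart, mostly at the transfer RNA genes that lie between the coding genes. The resulting messengers are translated inside the organelle and their proteins are joined with many more subunits encoded in the nucleus, made in the cytosol and imported, to form complexes I, III and IV of the respiratory chain and complex V, ATP synthase; complex II is encoded by the nucleus alone. In CD8+ T cells, activation and memory formation are accompanied by growth and remodelling of mitochondria, and exhausted cells in tumours are known for loss of mitochondrial function.

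All 10 genes lie on chromosome M of GRCm38, none has an intron, and several adjoin or overlap. Going clockwise, mt-Nd1 runs from 2751 to 3707, mt-Nd2 from 3914 to 4951, mt-Co1 from 5328 to 6872, mt-Co2 from 7013 to 7696, mt-Atp6 from 7927 to 8607, mt-Co3 from 8607 to 9390, mt-Nd4 from 10167 to 11544, mt-Nd5 from 11742 to 13565 and mt-Cytb from 14145 to 15288. The exception in orientation is mt-Nd6, from 13552 to 14070 on the minus strand, the only protein gene of this genome read from that strand. The following stretches were read from the GENCODE M21 transcripts of GRCm38 and are shown because they are where a read cannot be given to a single gene, or where the encoded messenger stops short. In the first, the 43 bases shared by mt-Atp8 and mt-Atp6, capitals mark the start codon of mt-Atp6.
chrM:7927-7969, plus strand: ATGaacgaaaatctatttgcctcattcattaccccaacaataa
In the next, capitals mark the stop codon of mt-Atp6 running into the start codon of mt-Co3, which share a base at 8607.
chrM:8593-8622, plus strand: catgataatacaTAATGacccaccaaactc
At the junction of mt-Nd4l and mt-Nd4, capitals mark the bases that both genes hold.
chrM:10153-10184, plus strand: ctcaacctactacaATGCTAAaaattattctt
The last bases of mt-Nd5 and of mt-Nd6 face each other, and capitals mark the 14 bases, from 13552 to 13565, that are annotated on both strands.
mt-Nd5, chrM:13536-13565, plus strand: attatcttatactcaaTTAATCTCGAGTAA
mt-Nd6, chrM:13552-13581, minus strand: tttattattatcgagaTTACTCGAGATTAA
The messengers of mt-Co3, mt-Nd4 and mt-Cytb end in a lone T, in capitals, which becomes a stop codon only when the poly(A) tail is added.
mt-Co3, chrM:9372-9390, plus strand: atttattgatgaggatctT
mt-Nd4, chrM:11526-11544, plus strand: attacaggcctgacaataT
mt-Cytb, chrM:15270-15288, plus strand: atactaaaattatatccaT

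The library kit keeps strand, but whether strand was used in counting is not given in the sources used here, so reads of mt-Nd6 and of RNA from the opposite strand cannot be told apart. The nuclear genome holds copies of mitochondrial genes. Among annotated copies that share 31-base words with the 13 protein genes, 10 were in the tables. The copies of members were low: Gm13340, which holds 45.2% of the words of mt-Co1, had 1.7 to 13.9 TPM over the sorted libraries, and Gm13341, with 47.1% of those of mt-Co2, had 0.848 to 12.5. Gm10222, a copy of mt-Nd4l, was listed at the same value as mt-Nd4l in 20 of 20 sorted and 19 of 19 tumour libraries, so the level of mt-Nd4l is uncertain. Longer copies on chromosome 1 had no entry under their symbols, such as Gm28437, with 99.9% of the words of mt-Co3, and Gm10925, with 99.5% of those of mt-Atp6. The low levels given for copies therefore do not cover them.

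Some libraries stood apart, and these bear on every value below. Entries made mostly of satellite or simple repeat sequence, 14 in number, took 69.3% of the TPM in sorted library 19 28% in library 16 and 25.1% in library 1, and 48.2% in tumour library T026 and 13.2% in T985. T cell markers (10 genes) summed to 3947.9 to 17459.2 TPM in the sorted set, but also to 4293.9 to 14553 TPM in the set labelled bulk tumour, where fibroblast and fibrosarcoma markers had a median of only 705.8 TPM; the label is kept here with that caution. Markers of skeletal muscle, a tissue rich in mitochondria, had a median sum of 32.7 TPM in the sorted set and 15.7 in the other, with Myh4 at 0 in every sorted library, and 3 of 3 brown fat markers were at 0 in both. In pooled cells, fewer cells of a type and less RNA per cell cannot be told apart.

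Within a library the members formed a stable ladder. In the sorted CD8+ T cells the highest median level belonged to mt-Atp6, the proton channel subunit of ATP synthase, at 10549.8 TPM, and to mt-Co3 at 10249.5, the third core subunit of cytochrome c oxidase; mt-Atp6 was the higher of the pair in 14 of 20 libraries. The catalytic oxidase subunits mt-Co2 and mt-Co1, which carry its copper and haem centres, followed at 6492.4 and 5894.8 TPM. Next came mt-Cytb, the haem-bearing core of complex III, at 2445.1 and mt-Nd1, a membrane subunit of complex I near its quinone site, at 2434.9, with mt-Cytb above mt-Nd1 in 7 of 20 libraries, so that these neighbours are not ordered. The other complex I membrane subunits were lower: mt-Nd6 at 2000.5, mt-Nd4 at 1260.9, mt-Nd2 at 838.1 and mt-Nd5 at 509.4 TPM.

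The libraries labelled bulk tumour gave nearly the same ladder, with a few neighbours exchanged. There mt-Co3 led at 13018.9 TPM, above mt-Atp6 at 11371 in 18 of 19 libraries. mt-Co1 at 8025.8 stood above mt-Co2 at 7162.4 in 16 of 19. The levels of mt-Nd1, mt-Nd6 and mt-Cytb, at 3820.1, 3704.7 and 3481.8 TPM, were not ordered, since mt-Nd1 was above mt-Nd6 in 9 of 19 libraries and mt-Nd6 above mt-Cytb in 10 of 19. mt-Nd5 was again lowest, at 539.9 TPM. The sets were quantified as separate tables, so these levels are set side by side without a test.

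**Figure D1:**
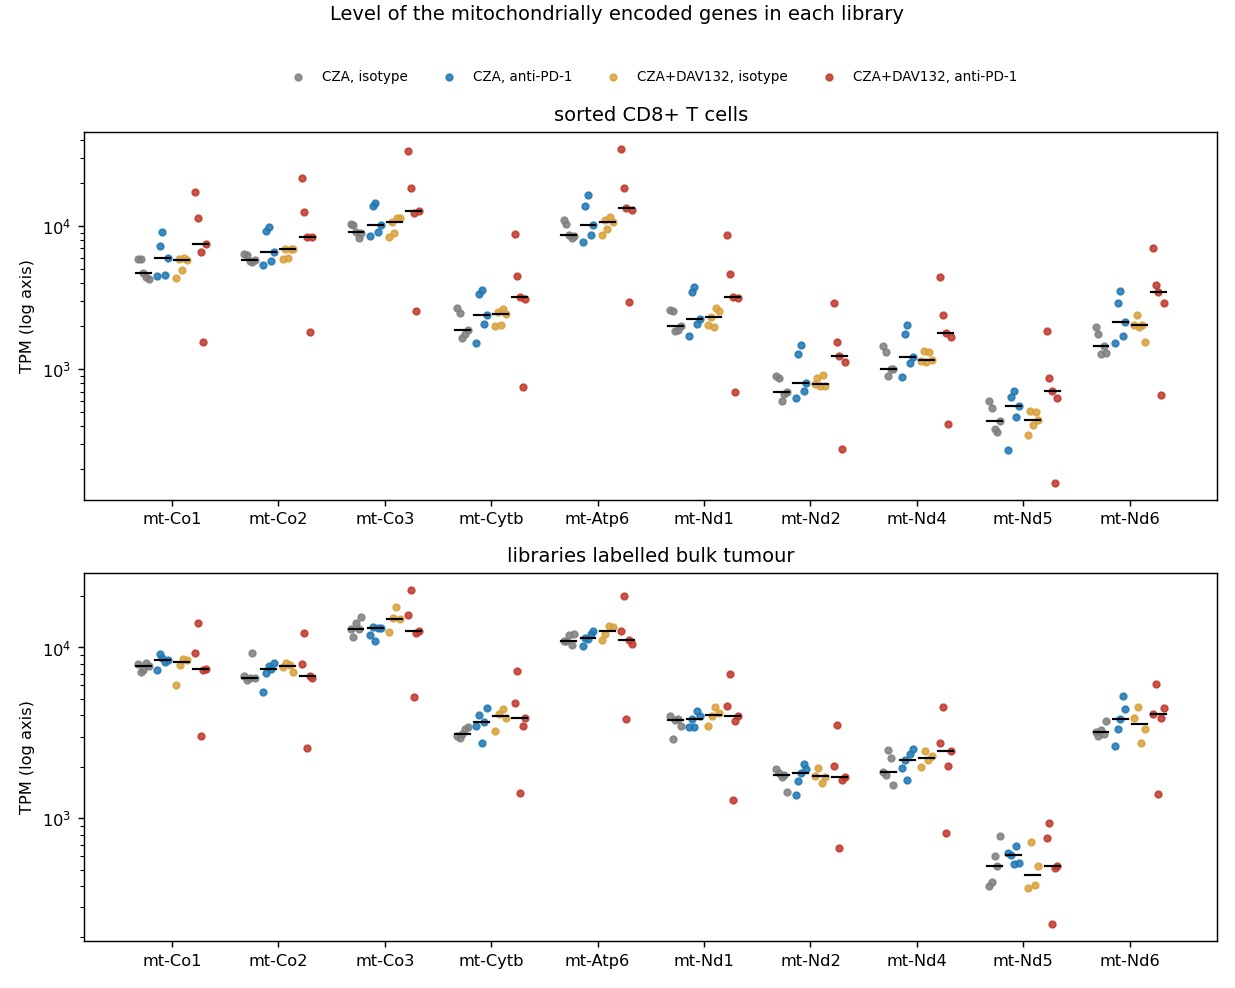
TPM of each of the 10 genes (log axis) in every library, by group; points are libraries and bars are group medians, with sorted CD8+ T cells above and libraries labelled bulk tumour below. In the sorted cells the anti-PD-1 group of the CZA+DAV132 arm (red) is the widest for each gene, with library 19 at the bottom and library 16 at the top.

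Because a shift that all members share cancels in it, each gene's share of the members' summed TPM was also followed. In the sorted cells the shares were steady: mt-Atp6 took 23.5% to 25.3% over 20 libraries, a coefficient of variation of 2.09%, and mt-Co3 took 21.6% to 26.1%. The widest was mt-Nd6, from 3.57% to 6.37%, with a coefficient of variation of 15%. Even in library 19, where the members' TPM was lowest, and in library 16, where it was highest, mt-Co1 took 13% and 12.3% of the sum. Shares varied more in the tumour set, from a coefficient of variation of 5.02% for mt-Atp6 to 19.2% for mt-Nd5.

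Small differences in make-up appeared between groups of sorted cells. The share of mt-Nd6 was 4.7% to 5.47% in CZA with anti-PD-1 and 3.67% to 4.52% in CZA with isotype, without overlap, a difference of 0.29 on the log2 scale. The share of mt-Nd1 was 5.85% to 6.19% under anti-PD-1 in the CZA+DAV132 arm and 5.25% to 5.82% with isotype, again without overlap, a difference of 0.09. Both had the smallest exact two-sided permutation p that 5 against 5 allows, 0.00794, and an adjusted p of 0.159 over 40 tests, so neither passed. In the tumour set the share of mt-Cytb was 6.26% to 6.89% in CZA+DAV132 with isotype and 5.64% to 6.13% in CZA with isotype, with an exact permutation p of 0.0159 and an adjusted p of 0.503.

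**Figure D2:**
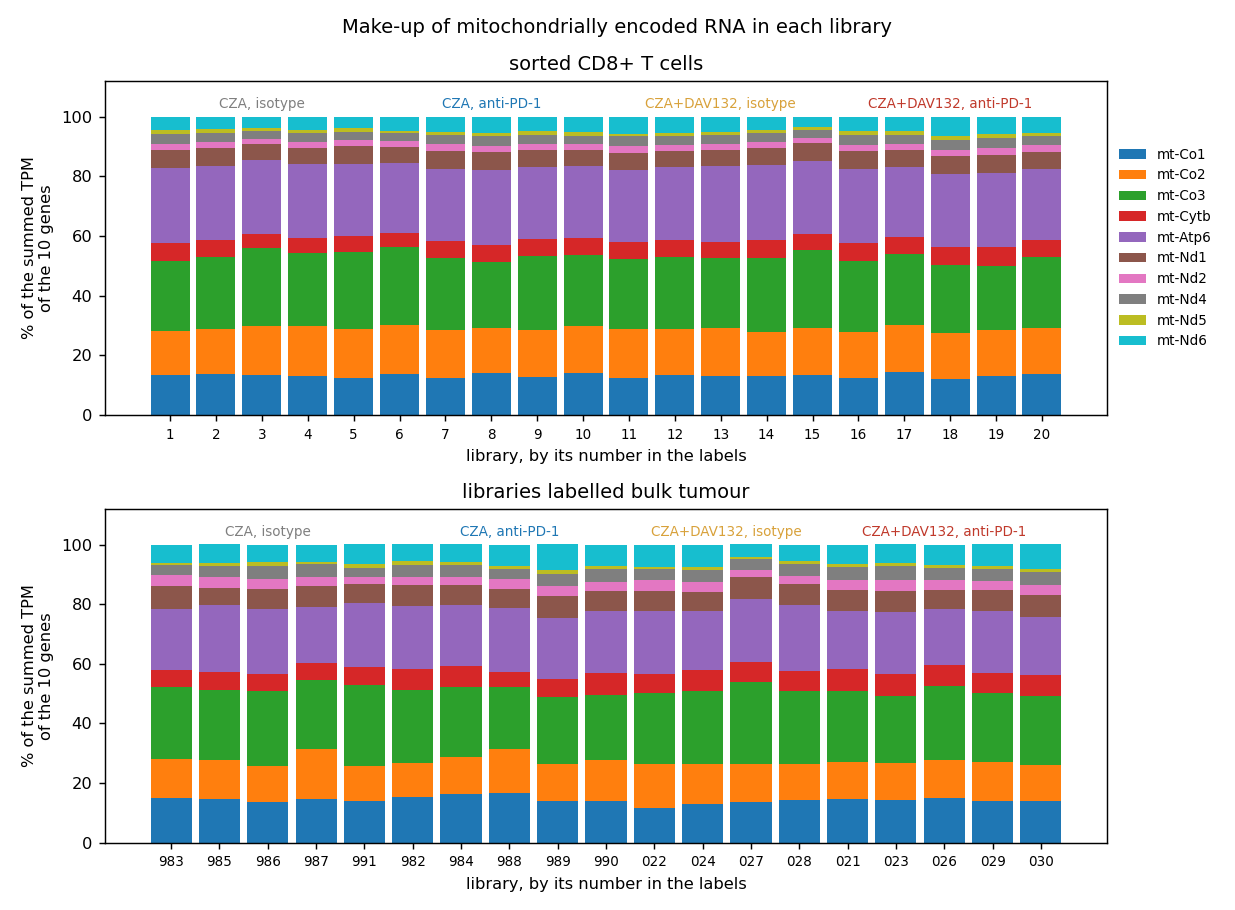
Share of the summed TPM of the 10 genes (%, stacked from 0) in every library, ordered by group, for sorted CD8+ T cells above and libraries labelled bulk tumour below. The bands keep nearly the same height from library to library in the sorted cells, where mt-Atp6 spans 23.5% to 25.3%, and vary somewhat more below.

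The median difference of the members was widest for anti-PD-1 against isotype in the CZA+DAV132 arm of the sorted set. In TPM, mt-Co1 was 17363.6, 11291, 6538.5, 1544.6 and 7479.5 in libraries 16 to 20 under anti-PD-1, and 4349.8, 5904.6, 4931.4, 5966.5 and 5809.3 in libraries 11 to 15 with isotype. Libraries 16, 17, 18 and 20 were above every isotype library, and library 19 was below every one. The same held for mt-Atp6, at 34750.6, 18506.5, 13340.8, 2961 and 12866.1 TPM under anti-PD-1 and at 8592.7, 10977, 9536.6, 11549.7 and 10715.6 with isotype.

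The complex I and complex III genes repeated this pattern library by library. mt-Nd6 was at 6976.2, 3876.7, 3453.1, 664.2 and 2903.6 TPM in libraries 16 to 20 and at 2024.6, 2377, 1974.2, 2050.1 and 1561.4 in libraries 11 to 15. mt-Nd5, which like mt-Nd2 and mt-Nd4 is related to the subunits of bacterial proton antiporters, was at 1865, 874.3, 702.2, 161.2 and 627.5 against 346.6, 515.7, 405.8, 503 and 440.2. Both genes thus exceeded every isotype library in 4 of 5 libraries and fell short of all of them in library 19. mt-Cytb was at 8767.4, 4499.4, 3174, 747.2 and 3073.4 TPM against 1995.9, 2519.7, 2029.4, 2630.8 and 2435.6. The remaining members, mt-Co2, mt-Co3, mt-Nd1, mt-Nd2 and mt-Nd4, had library 16 highest and library 19 lowest of all 20 as well. From lowest to highest library, each member spanned 10.4-fold to 13.1-fold in this group and 1.14-fold to 2.58-fold in the other 3.

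With that spread, 0 of 10 members passed in TPM (limma on log2(TPM + 1), called at a Benjamini-Hochberg adjusted p under 0.05 over all genes tested), and 0 of 10 had an unadjusted p under 0.05. In this comparison 3042 of 12942 genes tested were called, 23.5%, of which 533 were higher and 2509 lower. The members' log2 differences ran from 0.26 for mt-Co3 to 0.57 for mt-Nd5, all positive, with a median of 0.43 beside -0.34 over all genes tested. mt-Nd5 had 846 ± 627.8 TPM (SD, n = 5) under anti-PD-1 and 442.3 ± 69.9 (n = 5) with isotype, a log2 difference of 0.57 ± 0.42 (SE) with a limma adjusted p of 0.343. mt-Co3 had 15956.1 ± 11351.9 against 10143.3 ± 1407 TPM, a log2 difference of 0.26 with an adjusted p of 0.695. The count depended on which libraries were kept. Without library 19, 10 of 10 members were called higher, where 17.1% of all genes were called and 4.46% called higher. Without both libraries 16 and 19, 1 of 10 was called, where 9.43% of all genes were called and 4.24% called higher. The count was also 10 of 10 when limma weighted libraries by their spread, where 26.8% of all genes were called and 9.91% called higher. It was 5 of 10 when the 14 repeat entries were taken out of the total, where 20.1% of all genes were called and 10.7% called higher. With median-ratio scaling it stayed at 0 of 10, where 25.5% of all genes were called and 11.4% called higher.

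TPM is a share of everything listed, repeats included, so the fit was repeated on values relative to nuclear messenger RNA, that is, with each library rescaled to the summed TPM of entries that are neither mitochondrial, nor nuclear copies of mitochondrial genes, nor repeats, nor small RNA. On that scale 6 of 10 members rose under anti-PD-1 in the CZA+DAV132 arm: all 5 complex I genes described here and mt-Cytb. Their log2 changes were 1.21 ± 0.39 (SE) for mt-Nd5 (limma adjusted p = 0.0304), 1.15 ± 0.36 for mt-Nd6 (0.0277), 1.10 ± 0.36 for mt-Nd4 (0.0359), 1.09 ± 0.36 for mt-Nd2 (0.0349), 1.07 ± 0.38 for mt-Nd1 (0.0461) and 1.07 ± 0.38 for mt-Cytb (0.0492). The oxidase and ATP synthase genes missed the threshold narrowly, with log2 differences of 0.99 for mt-Co1 (adjusted p = 0.0527), 0.96 for mt-Co2 (0.0515), 0.95 for mt-Atp6 (0.0627) and 0.90 for mt-Co3 (0.0741). Since 23% of all genes tested were called here, 1953 higher (15.1%) and 1028 lower (7.94%) with a median log2 difference of 0.12, the scale also turned the balance of all calls upward.

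On the rescaled values library 19 no longer lay far below the rest. mt-Nd6 was at 13370.3, 5613.3, 4594.3, 2353 and 3660.3 in units of TPM rescaled to nuclear messenger RNA in libraries 16 to 20, and at 2217.4, 2719, 2159.5, 2431.5 and 1715.3 in libraries 11 to 15. Library 19 still lay among the isotype libraries, and the groups overlapped. Exact two-sided permutation tests of these rescaled values gave 0.0238 to 0.0397 for 9 of the members, all but mt-Co3, with an adjusted p of 0.176 over 40 tests for each of the 9. The limma count of 6 was not stable: it was 0 with no filter on low values, 0 when only the groups compared were fitted, 0 without any one of libraries 13, 15, 16 or 17, 1 without library 11, 2 without library 12 and 10 without library 19, where 20.6% of all genes were called.

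The nuclear-encoded partners of these proteins fell in the same comparison. Of 73 nuclear-encoded subunits of complexes I, III, IV and V, 72 were tested in the sorted cells, and 66 fell in TPM under anti-PD-1 in the CZA+DAV132 arm, none rose; 19.4% of all genes tested were called lower. By complex the called subunits were 31 of 36 in complex I, with a median log2 difference of -1.11, 9 of 9 in complex III (-1.01), 11 of 12 in complex IV (-1.19) and 15 of 15 in complex V (-1.06). The median over the 72 was -1.10, beside -0.34 over all genes. Those not called included Cox7c, Ndufa5, Ndufs7 and Ndufv3, with log2 differences from -0.85 to -0.69, and Ndufs1, an iron-sulphur subunit of complex I, at 0.36.

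The most abundant subunits of each complex show the size of this fall. Cox6c, a small subunit of cytochrome c oxidase, had 984.8 ± 399.7 TPM (SD, n = 5) under anti-PD-1 and 1912.7 ± 210.7 (n = 5) with isotype, a log2 change of -1.09 with a limma adjusted p of 0.0135. Its neighbour in the complex, Cox6b1, had 677.3 ± 283.2 against 1627.3 ± 292.1 TPM, a change of -1.38 (0.00844). In complex I, Ndufa3 had 718.8 ± 269.9 against 1407.5 ± 160.8 TPM, a change of -1.07 (0.0137), and Ndufa1 changed by -1.18 (0.0102). Uqcrb of complex III had 859.7 ± 356.8 against 1459.6 ± 169.8 TPM, a change of -0.90 (0.029), and Uqcr10 changed by -1.21 (0.0131). In ATP synthase, Usmg5 had 1449.4 ± 675.1 against 2767.1 ± 254.1 TPM, a change of -1.10 (0.0199), and Atp5e changed by -0.99 (0.0237). For each of these 8 genes, and for 56 of the 72 subunits tested, every library under anti-PD-1 was below every isotype library. Such separation was not counted over all genes tested, so it cannot be read as particular to the subunits. The 19.4% of all genes called lower is a different measure.

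The fall was smaller relative to nuclear messenger RNA, where 50 of the 72 subunits were called lower, beside 7.94% of all genes tested. These were 24 of 36 in complex I, 5 of 9 in complex III, 10 of 12 in complex IV and 11 of 15 in complex V. The median log2 difference of the subunits was -0.46, beside 0.12 over all genes. The 1 subunit called higher on that scale was Ndufs1, named after its values were seen, at 36.8 ± 17 against 17.1 ± 2.51, a log2 change of 0.98 with a limma adjusted p of 0.00536. Succinate dehydrogenase, complex II, has no mitochondrially encoded subunit, and in TPM 3 of its 4 subunits fell, Sdhb by 1.41, Sdhd by 1.38 and Sdhc by 1.37 on the log2 scale, while Sdha had a difference of -0.64 with an adjusted p of 0.109. In TPM 19.4% of all genes tested were called lower. Without libraries 16 and 19, the subunits of complexes I, III, IV and V called in TPM numbered 31 of 72, where 9.43% of all genes were called. With only the groups compared in the fit they numbered 28, where 12.1% of all genes were called.

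**Figure D3:**
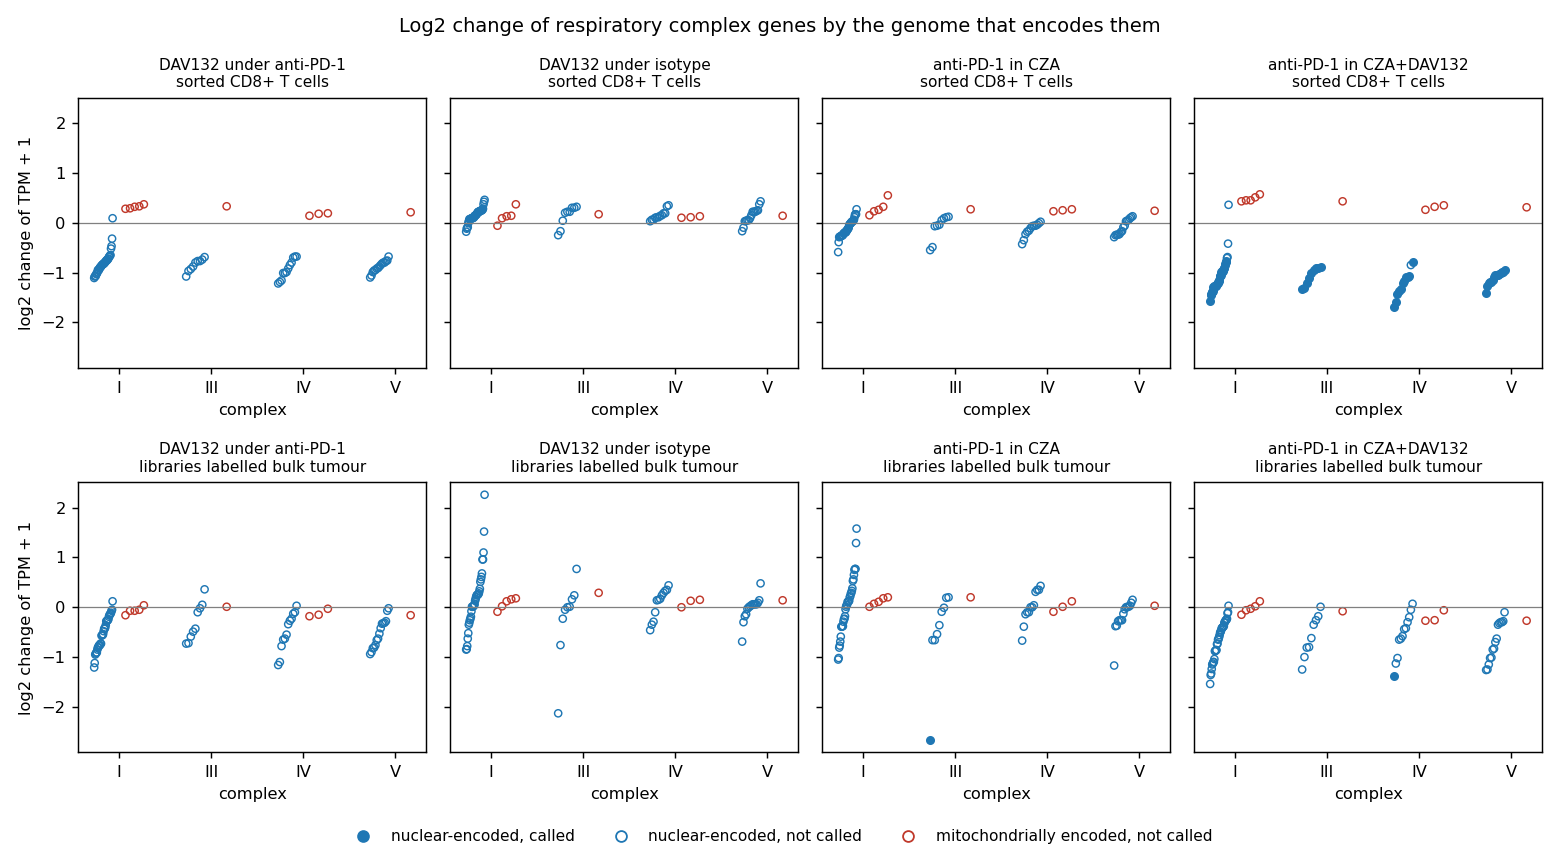
Log2 difference of TPM + 1 for the 10 mitochondrially encoded (red) and the nuclear-encoded (blue) subunits of complexes I, III, IV and V in the 4 comparisons of each set; filled points passed an adjusted p under 0.05 and the horizontal line marks no difference. In sorted cells under anti-PD-1 in the CZA+DAV132 arm the red points lie from 0.26 to 0.57, and 66 of 72 blue points are filled and negative.

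Within a library the ratio of summed member TPM to summed nuclear subunit TPM does not depend on the total, and it set these groups apart. It was 7.67, 2.72, 1.88, 1.27 and 1.52 in libraries 16 to 20 under anti-PD-1 in the CZA+DAV132 arm, and 0.69, 0.938, 0.75, 1.13 and 0.843 in libraries 11 to 15 with isotype. Every library under anti-PD-1, library 19 included, was above every isotype library, and the mean log2 ratio differed by 1.47; without library 16 it differed by 1.05. In the CZA arm the ratio was 0.662, 1.43, 1.92, 0.849 and 1.15 with anti-PD-1 and 1.52, 1.15, 0.739, 0.718 and 0.648 with isotype, which overlap, with a log2 difference of 0.31. No test is given for this ratio, since the genes were chosen with results of these data known.

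The terms of the ratio differed in how far they overlapped. The members took 1.18% to 14.1% of TPM, median 5.42%, under anti-PD-1 in the CZA+DAV132 arm and 3.55% to 4.58%, median 4.37%, with isotype, which overlap. The nuclear subunits took 0.93% to 3.56% and 4.04% to 5.19%, which do not. Per 100 units of nuclear messenger RNA the nuclear subunits took 3.29 to 4.49 under anti-PD-1 and 4.79 to 5.70 with isotype, without overlap. Resolved by complex, the ratio was 2.54 to 16.3 under anti-PD-1 and 1.32 to 2.31 with isotype for complex IV, the highest of the complexes in both groups. It was 0.722 to 4.1 against 0.402 to 0.591 for complex I, 0.702 to 3.7 against 0.333 to 0.555 for complex III, and 1.04 to 6.31 against 0.546 to 0.917 for complex V. None of these 4 pairs of ranges overlapped.

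**Figure D4:**
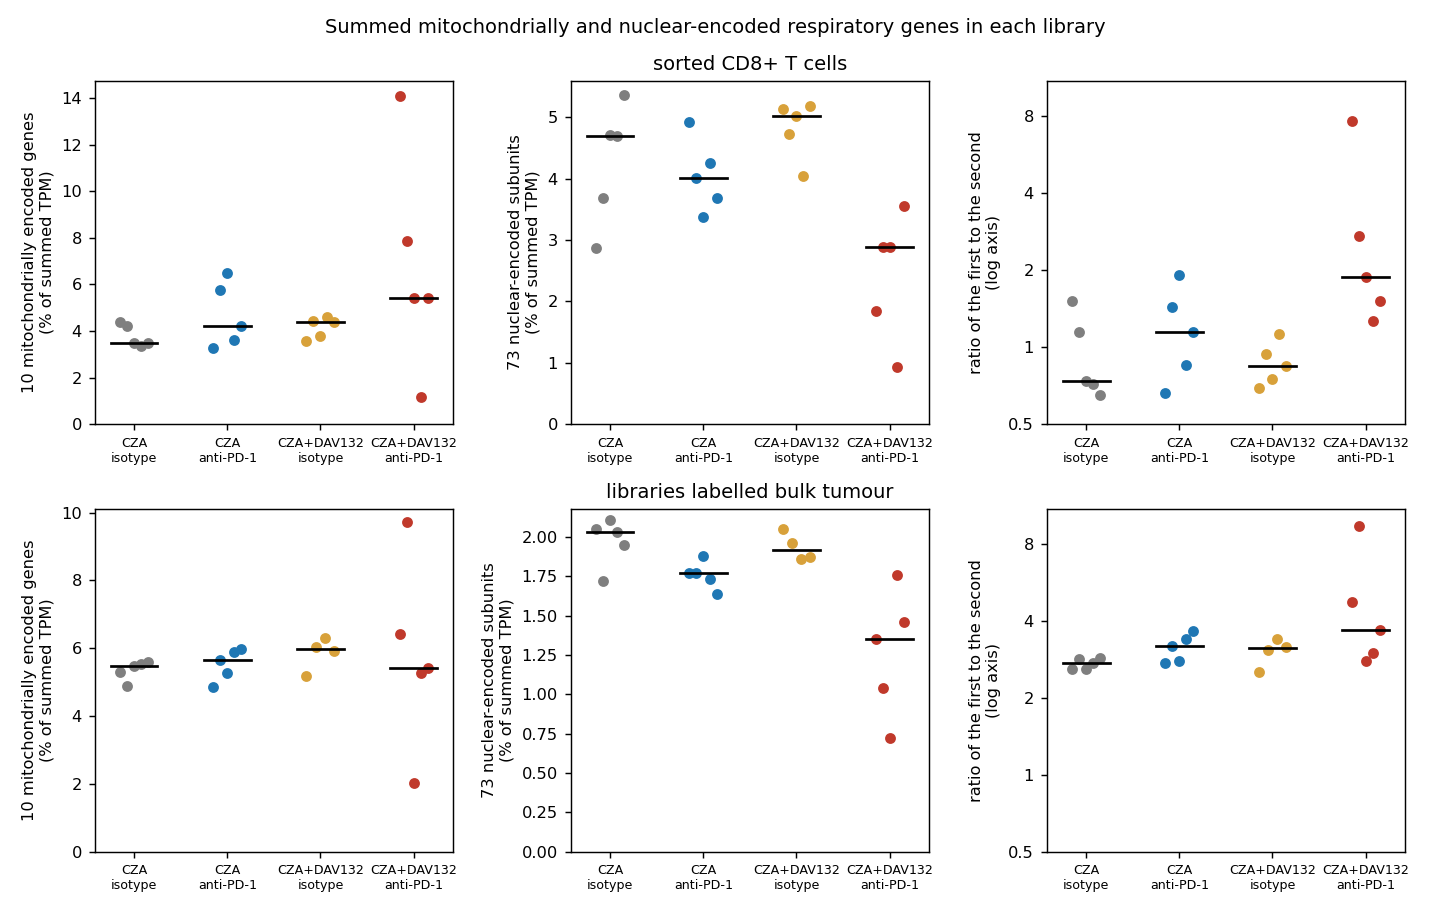
Summed TPM of the 10 mitochondrially encoded genes (left, % of all TPM) and of the 73 nuclear-encoded subunits (middle, %), and their ratio (right, log axis), in every library by group; bars are medians, with sorted CD8+ T cells above and libraries labelled bulk tumour below. In sorted cells the ratios of CZA+DAV132 with anti-PD-1, 1.27 to 7.67, all lie above those of CZA+DAV132 with isotype, 0.69 to 1.13.

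Other features of the libraries moved with this ratio. Split at a simple repeat content of 11% of TPM, a threshold chosen after the data were seen, the 10 sorted libraries above it, with 11.2% to 28%, had ratios of 1.15 to 7.67, and the 10 at or below it, with 0.336% to 8.39%, had ratios of 0.648 to 1.13. All 5 libraries of CZA+DAV132 with anti-PD-1 and none of the 5 with isotype were above, so within that arm repeat content and antibody cannot be told apart. In the CZA arm 2 isotype and 3 anti-PD-1 libraries were above. The part of repeat content in the ratio was not tested. In the tumour set, simple repeats took 0.189% to 0.672% in every library.

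Sums of marker genes of other cell types were compared between the same groups of sorted cells, anti-PD-1 and isotype in the CZA+DAV132 arm. The 5 endothelial markers summed to 431.7 to 2467.6 TPM under anti-PD-1, with the endothelial cadherin gene Cdh5 at 0, and to 216.6 to 381.7 TPM with isotype, without overlap. The 6 dendritic cell markers, at 11.4 to 33.3 TPM and 34.9 to 81 TPM, and the 4 keratinocyte markers, at 0.482 to 1.81 and 2.68 to 4.77 with Krt5 at 0 in both groups, were lower under anti-PD-1 and did not overlap either. The other sums overlapped. They were 3947.9 to 13180.4 TPM under anti-PD-1 and 11612.2 to 14678.5 TPM with isotype for the 10 T cell markers, and 125.1 to 551 and 288 to 346.6 for the 10 of fibroblasts and fibrosarcoma. The 10 macrophage and monocyte markers summed to 47 to 228.4 TPM and 62 to 600.8 TPM, the 5 NK cell markers to 8.34 to 29.9 and 18.9 to 70.1, and the 5 erythroid markers to 110.7 to 841.1 and 112.6 to 551.1. Their part in the members' levels and in the ratio was not tested.

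**Figure D5:**
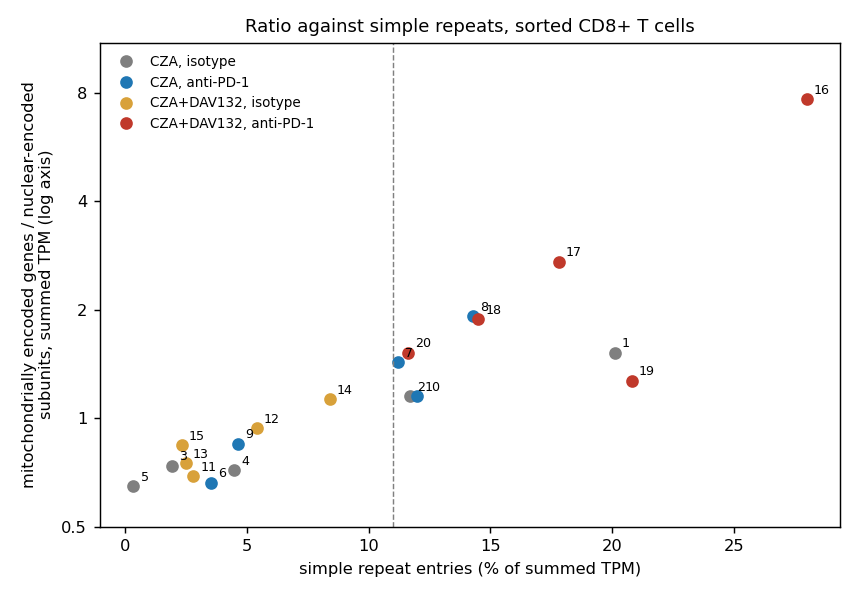
Ratio of summed mitochondrially encoded to summed nuclear-encoded subunit TPM (log axis) against the share of TPM in simple repeat entries (%), for the 20 sorted CD8+ T cell libraries, numbered as in the labels and coloured by group. The dashed line marks 11%, chosen after the data were seen; libraries to its right have ratios of 1.15 to 7.67 and those to its left 0.648 to 1.13.

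Genes that maintain mitochondrial DNA and make, process and stabilise its transcripts were taken as a list of 33, of which 31 were tested in the sorted cells. In TPM, 7 of 31 fell under anti-PD-1 in the CZA+DAV132 arm and 0 rose, with a median log2 difference of -0.38 beside -0.34 over all genes and 19.4% of all genes called lower. Tfam, which packages mitochondrial DNA and starts its transcription, had 6.13 ± 2.62 TPM (SD, n = 5) under anti-PD-1 and 23.6 ± 7.97 (n = 5) with isotype, a log2 change of -1.82 ± 0.39 (SE) with a limma adjusted p of 0.00767. Rexo2, a nuclease that degrades very short RNA in mitochondria, changed by -1.41 (0.00686), and Trmt10c, a subunit of the enzyme that cuts and methylates mitochondrial transfer RNA, by -1.10 (0.00771). These 3 genes were picked by adjusted p in this comparison. For each of them every library under anti-PD-1 was below every isotype library, which adds no support after such a pick. Relative to nuclear messenger RNA the count was 4 lower and 3 higher, where 7.94% of all genes were called lower and 15.1% higher. The 3 called higher there, named after their values were seen, were Nrf1, a transcription factor for respiratory genes, with a log2 change of 1.04 (adjusted p = 0.00424), Polg, the mitochondrial DNA polymerase, with 0.76 (0.0218), and Mterf1a, a mitochondrial transcription termination factor, with 0.67 (0.0131).

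Of the mitochondrially encoded protein genes outside the 10, mt-Atp8, the small partner of mt-Atp6, had a log2 difference of 0.34 in TPM in this comparison, mt-Nd3 of 0.20 and mt-Nd4l of 0.66, and none was called. Relative to nuclear messenger RNA, mt-Nd4l was called, at 344.8 ± 264.1 against 116.9 ± 19.7 (SD, n = 5 each), a log2 change of 1.30 with a limma adjusted p of 0.0123, with the reservation that its value equals that of Gm10222.

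DAV132 was compared under anti-PD-1 by setting the same 5 libraries, 16 to 20, against CZA with anti-PD-1, so that the comparison shares them with the preceding one. The CZA libraries 6 to 10 had mt-Co1 at 4500.9, 7205.1, 9034.5, 4587.8 and 5966.7 TPM and mt-Nd6 at 1535, 2894.7, 3544.9, 1710.4 and 2131.8. Libraries 7 and 8 stood above the other 3 for both genes, and the groups overlapped. In TPM, 0 of 10 members were called by limma and 0 had an unadjusted p under 0.05, where 0.0386% of all genes were called, 5 of 12942. Their log2 differences were 0.14 to 0.37, with a median of 0.28 beside -0.40 over all genes, standard errors of 0.41 to 0.43 and adjusted p-values of 0.534 to 0.822. Of the 72 nuclear subunits 71 had negative differences, with a median of -0.85; 0 were called by limma, and 68 had an unadjusted p under 0.05, as did 4338 of the 12942 genes tested (33.5%). The log2 ratio of members to nuclear subunits differed by 1.08, and by 0.66 without library 16.

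Anti-PD-1 in the CZA arm gave smaller differences. Libraries 1 to 5, with isotype, had mt-Co1 at 5921.9, 5885, 4704.5, 4424.5 and 4286.5 TPM and mt-Nd6 at 1976.4, 1774.5, 1277.1, 1449.5 and 1296.4, and both genes overlapped with libraries 6 to 10. In TPM, 0 of 10 members were called by limma, 0 at an unadjusted p under 0.05, beside 0.0155% of all genes. The largest difference was that of mt-Nd6, with 2363.3 ± 843.3 TPM (SD, n = 5) under anti-PD-1 and 1554.8 ± 308.6 (n = 5) with isotype, a log2 difference of 0.55 ± 0.41 (SE) and an adjusted p of 0.997. The other 9 were between 0.15 and 0.32, and the nuclear subunits had a median of -0.09 with 0 called, also at an unadjusted p. All 4 groups of the set share the spread in this fit. In CZA+DAV132 with anti-PD-1, mt-Nd6 had an SD of 2269.2 TPM. The standard errors thus also hold the spread of libraries 16 to 20, which are not compared here. With only the groups compared in the fit, 0 of 10 members were called as well.

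Under isotype, the members' median difference between CZA+DAV132 and CZA was the smallest of the 4 pairwise comparisons of the sorted set. In TPM, 0 of 10 members were called by limma and 0 had an unadjusted p under 0.05, and 0% of all genes were called. The spread in this fit likewise includes libraries 16 to 20, which are not compared here. The log2 differences were -0.06 for mt-Nd5 to 0.37 for mt-Nd6, with a median of 0.13, and the nuclear subunits had a median of 0.15. The log2 ratio differed by -0.07. The difference between the arms in the anti-PD-1 effect, tested as an interaction in TPM, was called for 0 of 10 members, 0 at an unadjusted p under 0.05, and for 0% of all genes; its log2 values for the members were -0.04 to 0.42 with standard errors of 0.57 to 0.60. An effect of the antibody on the members that differs between the arms was therefore not shown. For the nuclear subunits the interaction had a median of -1.03, beside -0.37 over all genes, with 0 of 72 called by limma and 58 at an unadjusted p under 0.05, as were 2036 of the 12942 genes tested (15.7%).

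Relative to nuclear messenger RNA, 0 of 10 members were called by limma in the other comparisons of the sorted set as well. For DAV132 under anti-PD-1, where 0.0155% of all genes were called, the members' log2 differences were between 0.68 and 0.90, and 7 of 10 had an unadjusted p under 0.05, as did 19.9% of all genes, with adjusted p-values of 0.186 to 0.297. For anti-PD-1 in CZA (0.0155% of all genes called) they were 0.17 to 0.58, for DAV132 under isotype (0.0232%) -0.14 to 0.29 and for the interaction (0.00773%) 0.58 to 1.04, and 0 of 10 had an unadjusted p under 0.05 in each of these 3.

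In the libraries labelled bulk tumour the members differed little in any comparison. mt-Co1 was at 9287.9, 13921, 3032.7, 7343.9 and 7528.3 TPM in libraries T021, T023, T026, T029 and T030, of CZA+DAV132 with anti-PD-1, and at 6026, 7940.9, 8615.9 and 8399.6 in libraries T022, T024, T027 and T028 with isotype. Library T023 was the highest and library T026, the repeat-rich one, the lowest of all 19, and the groups overlapped. mt-Nd6 was at 4074.8, 6147.7, 1384.7, 3885.6 and 4434.1 TPM against 3849.3, 4473.1, 2749.2 and 3320.3, again with T023 highest and T026 lowest.

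The CZA tumour libraries were narrower. mt-Co1 was at 7368.6, 9120.7, 8676.9, 8170.5 and 8446.8 TPM in libraries T982, T984, T988, T989 and T990 with anti-PD-1 and at 8025.8, 7136.8, 7404.8, 8065.7 and 7760.7 in libraries T983, T985, T986, T987 and T991 with isotype. The groups overlapped through library T982.

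In TPM, 0 of 10 members were called by limma in each of the 5 tumour comparisons, and 0 had an unadjusted p under 0.05. The share of all genes called was 0.24% for anti-PD-1 in CZA+DAV132, 0.285% for anti-PD-1 in CZA, 0% for DAV132 under anti-PD-1, 0.113% for DAV132 under isotype and 0.045% for the interaction. The members' log2 differences ran from -0.27 to 0.12 for anti-PD-1 in CZA+DAV132, from -0.09 to 0.20 for anti-PD-1 in CZA, from -0.18 to 0.04 for DAV132 under anti-PD-1 and from -0.09 to 0.29 for DAV132 under isotype, with standard errors of 0.25 to 0.31. All 4 groups share the spread in these fits, so libraries far apart also widen comparisons they are not part of. Relative to nuclear messenger RNA 0 of 10 were called and 0 had an unadjusted p under 0.05 in these 5 comparisons, where 0.788%, 0.405%, 0.015%, 0.12% and 0.015% of all genes were called. The highest TPM difference, mt-Cytb for DAV132 under isotype, had 3885.6 ± 470.9 TPM (SD, n = 4) against 3162.8 ± 206.9 (n = 5), a limma adjusted p of 0.778 and an exact permutation p of 0.0476, which adjusted over 40 tests to 1.

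The nuclear subunits of the tumour set leaned as in the sorted cells, though few were called. For anti-PD-1 in CZA+DAV132 their median log2 difference was -0.61 beside -0.15 over all genes, and 69 of 72 were negative. The 1 called lower, where 0.21% of all genes were, was Ndufa4, a small subunit associated with cytochrome c oxidase, with 190.2 ± 54 TPM (SD, n = 5) against 485.4 ± 84.4 (n = 4), a log2 change of -1.38 ± 0.29 (SE) with a limma adjusted p of 0.0489. Atp5b, the catalytic beta subunit of ATP synthase, had 626.2 ± 247.6 against 1384.2 ± 110.8 TPM without overlap, a difference of -1.25 with an adjusted p of 0.0765. Uqcrh, the hinge protein of complex III, differed by -0.81 (0.143) and Cox4i1, a regulatory subunit of the oxidase, by -0.65 (0.242). Cox7b of complex IV, at 603.2 ± 228.8 against 656.3 ± 124.8 TPM, and Atp5j of complex V, at 546.8 ± 217.4 against 629.6 ± 93.5, differed less, and their groups overlapped. Mean TPM was 282.5 against 557.7 for Ndufc1, 241.5 against 492.8 for Ndufa1 and 247.9 against 575.4 for Uqcrq. For anti-PD-1 in CZA the 1 called, where 0.0075% of all genes were called lower, was Uqcrc1, a core subunit of complex III, with 8.28 ± 4.09 against 53.1 ± 8.29 TPM (n = 5 each), a change of -2.67 ± 0.52 (0.0374). Ndufa4 and Uqcrc1 were named after their values were seen. The call of Ndufa4 was lost in 8 of 9 fits that left out a single library, T026 among them (all but the one without T029), and with no filter on low values, with only the groups compared and with median-ratio scaling. The call of Uqcrc1 was lost in 5 of 10 such fits, those without one of the anti-PD-1 libraries T982, T984, T988, T989 and T990, and with no filter and with array weights.

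The ratio of members to nuclear subunits in the tumour set was 4.76, 9.39, 2.80, 2.99 and 3.70 in libraries T021, T023, T026, T029 and T030, and 2.53 to 3.39 in CZA+DAV132 with isotype, 2.74 to 3.66 in CZA with anti-PD-1 and 2.59 to 2.86 in CZA with isotype. The ratios under anti-PD-1 overlapped with those under isotype in both arms, with log2 differences of 0.49 in CZA+DAV132, or 0.20 without library T023, and 0.20 in CZA. The nuclear subunits alone took 0.725% to 1.76% of TPM under anti-PD-1 and 1.86% to 2.05% with isotype in CZA+DAV132, without overlap, and 1.64% to 1.88% and 1.72% to 2.11% in CZA, which overlap through the repeat-rich library T985. Per 100 units of nuclear messenger RNA they took 1.21 to 1.90 under anti-PD-1 and 2.03 to 2.20 with isotype in CZA+DAV132, and 1.79 to 2.04 and 2.12 to 2.28 in CZA, and neither pair overlapped. The 5 endothelial markers summed to 1756.9 to 5830.9 TPM under anti-PD-1 and to 815.6 to 1432.2 with isotype in CZA+DAV132. Among them Cldn5 was at 0 in both groups and Cdh5 at 0 in every isotype library. The part of these markers was not tested.

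Members followed each other closely across libraries. Over the 20 sorted libraries, which share their total scale, the 45 pairs of members had Pearson correlations of log2(TPM + 1) of 0.920 to 0.997, median 0.978, and over the 19 tumour libraries 0.676 to 0.965, median 0.883. The mean log2 level of the members correlated with that of single nuclear subunits at a median of only 0.022 in the sorted and 0.212 in the tumour set. The entries most like the members' mean over the 20 sorted libraries, among 7534 compared, were Gm10222, the copy of mt-Nd4l, at 0.956, then Luc7l3 at 0.919, Trip4 at 0.897, Kdm5a at 0.867 and Kdsr at 0.867. Over the 19 tumour libraries, among 8704, they were Rps26 at 0.881, Hsp90ab1 at 0.880, Rpl38 at 0.875, Rps12-ps3 at 0.852 and Gm20430 at 0.844. No gene outside the mitochondrial genome was among the first 5 in both sets.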

How the data were processed

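Values were deposited by the authors as TPM, with separate tables for sorted cells and tumours. The submitters' processing notes name kallisto 0.45 and GRCm38; annotation, gene summing and strand setting are not given there or in the labels. Total RNA (300 ng) was depleted of ribosomal RNA before directional library preparation, per the labels' protocols. Sets were fitted separately, and the 4 groups of a set share 1 estimate of the spread of each gene. Genes reaching 1 TPM in 4 or more libraries entered limma 3.58.1 (R 4.3.3) on log2(TPM + 1), with a mean per group, a trended prior and Benjamini-Hochberg adjustment; fold changes on this scale understate low genes. The same fit was run on TPM rescaled to nuclear messenger RNA. Single members were also tested by exact permutation (scipy 1.17.1), adjusted over the 10 members and 4 pairwise comparisons of a set. Named genes were all members, the other mitochondrial protein genes, the 2 nuclear subunits of highest mean TPM per complex, 3 mitochondrial DNA expression genes by adjusted p and the 5 entries most correlated with the members. Members and lists were chosen with earlier results of these data known. Library numbers do not recur between groups. The fit was also run on simulated data with independent normal noise and the same spread in every group. That does not cover a group of wider spread or libraries that shift as a whole.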

Additional observations from a re-analysis of the deposited data

Results flagged for a closer look

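Each member's TPM and the ratio of members to nuclear subunits were examined in each group for a library far from the others (Dixon's criterion). Of these 88 combinations of group and quantity, 2 held one. Chance flags about 1 in 20, but the members move together, so the combinations are not independent. In sorted CD8+ T cells of CZA+DAV132 with anti-PD-1, the ratio of summed mitochondrially encoded to summed nuclear-encoded subunit TPM was 7.67 in library 16, and the nearest library had 2.72. Among libraries labelled bulk tumour of CZA with isotype, mt-Co2 was at 9265.1 TPM in library T987, and the nearest library had 6776.7.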

How the results depend on the processing

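No paired analysis was possible because library numbers are not shared between groups. For anti-PD-1 in CZA+DAV132 in sorted cells, the count of members called in TPM (0) became 10 with array weights, 6 relative to nuclear messenger RNA, 5 without repeat entries and 1 without libraries 16 and 19; leaving out 1 library at a time gave 0 to 10. Relative to nuclear messenger RNA that count (6) became 0 with no filter, 10 with array weights and 0 with only the groups compared, and 0 to 10 with 1 library left out. In the other comparisons of both sets, on both scales, 0 members were called under every setting run. Nuclear subunits called for anti-PD-1 in CZA+DAV132 in sorted cells (66) became 28 with only the groups compared and 31 without libraries 16 and 19 (51 to 69 with 1 library left out), and relative to nuclear messenger RNA (51) 31 without libraries 16 and 19 (37 to 52). For DAV132 under anti-PD-1 they (0) became 38 with a mean of at least 5 TPM and 16 with array weights (0 to 66, the highest without library 20). Relative to nuclear messenger RNA they became 13 with array weights (0 to 21). For this comparison and the tumour set, shares of all genes called under each changed setting are not given here. Their counts therefore cannot be read as particular to the subunits. With no setting changed, 33.5% of all genes had an unadjusted limma p under 0.05 in TPM for DAV132 under anti-PD-1. In the tumour set the nuclear subunits called (0) became 1 with array weights for DAV132 under anti-PD-1, or 2 relative to nuclear messenger RNA. For anti-PD-1 in CZA they (1) became 0 with no filter or array weights and 3 with median-ratio scaling (0 to 1); relative to nuclear messenger RNA (1), 2 with a pseudocount of 0.1 or a mean of at least 5 TPM, and 0 with no filter, array weights, only the groups compared or without library T026 (0 to 2). For anti-PD-1 in CZA+DAV132 they (1) became 0 with no filter, only the groups compared, median-ratio scaling or without library T026, 2 with a mean of at least 5 TPM, relative to nuclear messenger RNA or without repeat entries, and 8 with array weights (0 to 7); relative to nuclear messenger RNA (2), 0 with no filter, only the groups compared or without library T026, 4 with a mean of at least 5 TPM and 8 with array weights (0 to 5).

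The log2 difference of the ratio kept its sign with 1 library left out in 7 of 8 comparisons: 1.05 to 1.70 for anti-PD-1 in CZA+DAV132, 0.66 to 1.31 for DAV132 under anti-PD-1 and 0.12 to 0.50 for anti-PD-1 in CZA in sorted cells, and 0.20 to 0.64, 0.15 to 0.59, 0.15 to 0.25 and, for DAV132 under isotype, 0.10 to 0.24 in the tumour set. The exception, DAV132 under isotype in sorted cells (-0.07), ranged from -0.19 to 0.11, with 0.11, 0.01 and 0.00 under the 3 settings that turned its sign. Most settings for the nuclear subunit counts, and the single libraries left out relative to nuclear messenger RNA, were added after the data were seen. The cause of these changes was not tested, except that fits of only the groups compared use fewer libraries. Depth is unknown, and 4 or 5 libraries a group limit what could be called.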
